A study of Mus musculus with 6 samples.

Results

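The tripartite motif (TRIM) genes were taken as every feature whose deposited gene name is Trim followed by digits, with or without a letter after them, and whose counts summed over the libraries reached 30. The files held 68 such names among 26554 features, and 51 of them met the minimum. The study placed type IV collagenase (10 nL, 0.01 U) or saline (10 nL) into the right VPL/VPM of wild-type C57 mice, as a model of central post-stroke pain. VPL and VPM, the ventral posterolateral and posteromedial nuclei, relay touch and pain signals through the thalamus, and collagenase digests the collagen of vessel walls there, which produces a local haemorrhage. Tissue was taken at day 14, with 3 libraries per group, and all 6 libraries share the strain, the wild-type genotype and a stereotaxic injection. No uninjected tissue was analysed here, age and sex are not stated, and whether animals were pooled for a library is not stated either, so the p-values reflect only how far these libraries differ among themselves, which may be technical.

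Most TRIM proteins are ubiquitin ligases: a RING domain recruits a ubiquitin-charged E2 enzyme, B-box and coiled-coil regions pair the protein with itself, and a variable end chooses the target. Part of the family is switched on by interferon and acts in antiviral sensing, restriction and feedback. Another part is made by neurons and acts on axon branching, the axon initial segment, neurofilaments and the postsynaptic density. The interferon-inducible list held 16 names, of which 14 were members here, and the neuronal list held 6, all of them members. A further 4 members were the transcriptional regulators Trim24, Trim28, Trim33 and Trim66, 1 was a muscle gene, Trim72, and 26 were in no list.

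Many interferon-induced genes carry an interferon-stimulated response element near their start, so the RefSeq promoters (GRCm38.p6, 250 bases before to 50 after the start) were searched on both strands for the letters GAAA followed by any 2 bases and GAAA again. These letters stand in 3.44% of all 32851 promoters of that length. Of the 13 interferon-inducible members with a promoter in the table, 8 held them, against 1 of 5 neuronal members and 0 of 21 others. Some members have several promoters. Counted by promoter, as the 3.44% is, these were 9 of 14, 1 of 11 and 0 of 27. A second element, GAS, was searched as TTC followed by any 3 bases and GAA, which stands in 8.3% of all promoters. It stood in 0 of 14 interferon-inducible, 1 of 11 neuronal and 3 of 27 other promoters, and its matches are not printed. The windows below run 5′ to 3′ on the gene's own strand, with the matched letters in capitals (they read TTTC, 2 bases, TTTC where the match lies on the opposite strand). They are shown so that the RNA values of these genes, given further on, can be read beside their letters.
Trim34a, chr7:104244457-104244486, plus strand: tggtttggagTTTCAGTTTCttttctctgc
Trim21, chr7:102565450-102565479, minus strand: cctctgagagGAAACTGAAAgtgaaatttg
Trim30a, chr7:104465210-104465239, minus strand: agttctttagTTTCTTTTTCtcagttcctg
Trim30d, chr7:104507871-104507900, minus strand: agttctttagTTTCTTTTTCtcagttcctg
Trim12c, chr7:104353359-104353388, minus strand: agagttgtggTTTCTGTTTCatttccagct
Trim12a, chr7:104315466-104315495, minus strand: agagttgtggTTTCTGTTTCatttccagag
Trim5, chr7:104288136-104288165, minus strand: agagttgtggTTTCTGTTTCatttccagag
Trim26, chr17:36836982-36837011, plus strand: ccgatttcacTTTCCTTTTCtcgggcccgg
The Trim30a and Trim30d windows printed are identical, as are those of Trim5 and Trim12a. In the last window and in that of Trim21 an overlapping copy of the letters was also found. Matched letters began 36 bases before the RefSeq start in Trim30a and 11 bases after it in Trim34a. A match of letters describes the sequence and is not a measured binding site.

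Total counts ran from 33603076 to 44815451 per library. Thalamic relay markers (Slc17a6, Tcf7l2 and 5 others) were present in every library, with a summed level of 2072 to 3059 CPM (counts relative to the library total, scaled by TMM factors). Saline replicate 3 stood apart by 5 striatal markers, which summed to 467.8 CPM against 72.2 to 162.0 CPM in the other libraries, and choroid plexus markers summed to 20.6 CPM there and 17.5 CPM in collagenase replicate 3 against 918.2 to 2564 CPM elsewhere. The 8 microglia and macrophage markers summed to 175.0 to 208.2 CPM in saline and 478.1 to 840.6 CPM in collagenase libraries, and 5 of them rose (edgeR adjusted p under the threshold). Of 6 hippocampal and cortical markers none passed, but Neurod6 measured 23.0 and 39.7 CPM in saline replicates 1 and 2 against 0.176 to 3.65 CPM elsewhere, and Neurod2 10.2 and 12.4 CPM against 0.968 to 5.88 CPM. For several members that saline replicate 3 affected, the value without it is also given. It is not given for all of them, for example Trim23 and Trim35, whose groups overlapped through that library. In tissue RNA, fewer cells of a type and less RNA per cell cannot be told apart.

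After collagenase none of the 51 TRIM genes passed the test across all genes, edgeR's quasi-likelihood test with Benjamini-Hochberg adjustment over 17240 features at a threshold of 0.05. Of all tested features 2.41% passed (2.12% higher and 0.290% lower), so a count of 0 among 51 members lies near the background. DESeq2 called 3 members, Trim34a, Trim30a and Trim21, all lower, against 4.00% of its 19676 features, with 0.915% lower and 3.09% higher. At an unadjusted p under 0.05, edgeR gave 8 members. Of these, 7 were lower after collagenase, a share of 13.7% where 4.60% of all features were lower at that p, and 1 was higher, against 7.44%. The 7 were Trim6, Trim34a, Trim21, Trim30a, Trim12c, Trim25 and Trim32, and the higher gene was Trim47. Groups did not overlap for 8 members (15.7%), against 17.6% of all features. Among these were 7 members that were lower in collagenase (7.50% of all features) and 1 that was higher (10.1% of all features). Without saline replicate 3, edgeR called 4 members, Trim21, Trim34a and Trim12c lower and Trim62 higher, where 5.21% of all features passed (2.35% lower and 2.86% higher). It called 0 members without saline replicate 1 or 2 or without collagenase replicate 1, 2 or 3, where 0.483%, 1.98%, 1.19%, 0.810% and 1.21% of features passed. With RLE size factors and a non-robust fit the count was 0 as well, at 2.34% and 2.29% of features. Without a filter on low counts, and with the replicate number as a block, 1 member was called in each, at 1.97% and 1.75% of features.

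**Figure D1:**
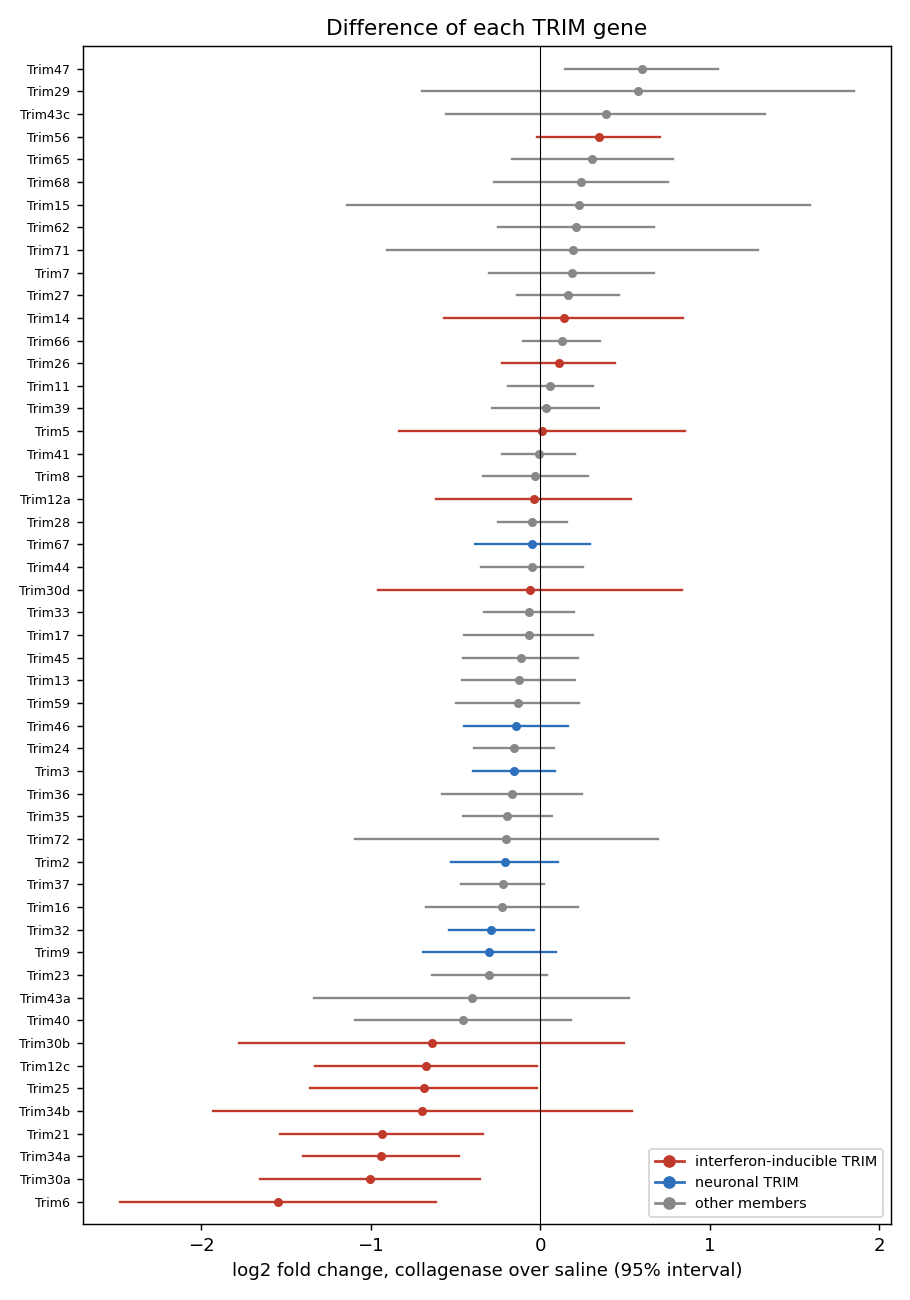
Log2 fold change of each of the 51 TRIM genes, collagenase over saline (x axis), with its 95% interval from the edgeR fit; red marks interferon-inducible, blue neuronal and grey other members. The 4 lowest values, from Trim6 at -1.55 to Trim21 at -0.94, all belong to interferon-inducible genes, and the highest is Trim47 at 0.60.

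The 2 lists are set side by side here as descriptions. The median log2 fold change was -0.66 over the 14 interferon-inducible members, with 10 below 0, and -0.18 over the 6 neuronal members, all below 0. For comparison the median was -0.05 over the 31 members outside both lists and -0.02 over all tested features, of which 53.4% were below 0. None of these list medians was tested, and neither was the difference between the lists. The median standard error (SE) was 0.29 for the interferon-inducible and 0.14 for the neuronal members, so the former were also measured less precisely. The 95% interval lay within -1 and 1 for all 6 neuronal members and for 6 of the 14 interferon-inducible ones.

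Trim34a, a relative of the retroviral restriction factor Trim5, came closest to the threshold. It measured 12.6, 10.4 and 8.88 CPM in saline replicates 1, 2 and 3 and 6.74, 4.68 and 5.21 CPM in the collagenase replicates. Every saline library was above every collagenase library. The means were 10.6 ± 1.89 and 5.54 ± 1.07 CPM (SD, n = 3 libraries each), and the log2 fold change was -0.94 (SE 0.20, edgeR adjusted p 0.0546). In DESeq2 the adjusted p was 0.0017, and without saline replicate 3 the edgeR log2 fold change was -1.06 with an adjusted p of 0.026. Over all alternatives the adjusted p ran from 0.0017 to 0.257. Reads of Trim34a may be shared with its copy Trim34b: 39.8% of the 50-base stretches of its annotated transcripts also occur in Trim34b. Trim34b itself, with 71 counts in all, measured 0.383, 0.407 and 0.323 CPM in saline and 0.357, 0.0806 and 0.233 CPM in collagenase libraries, with overlapping groups.

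Trim30a, which limits Toll-like receptor signalling through degradation of the adaptors Tab2 and Tab3, measured 20.2, 19.9 and 13.0 CPM in saline and 12.6, 7.50 and 6.27 CPM in collagenase libraries. The groups did not overlap, but saline replicate 3 and collagenase replicate 1 nearly met. Its log2 fold change was -1.005 (SE 0.28), with an adjusted p of 0.158 in edgeR and 0.0137 in DESeq2. Without saline replicate 3 it was -1.18 (edgeR adjusted p 0.0581). Trim21, the intracellular antibody receptor that marks coated viruses for destruction, measured 7.95, 8.37 and 4.57 CPM in saline and 4.35, 3.36 and 3.21 CPM in collagenase libraries. Here too saline replicate 3 lay close to collagenase replicate 1. Its log2 fold change was -0.94 (SE 0.26), with an adjusted p of 0.153 in edgeR, 0.0317 in DESeq2 and 0.0202 in edgeR without saline replicate 3.

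Trim6, which builds free ubiquitin chains that activate the kinase Ikbke, had the lowest fold change of the family on little RNA. It measured 1.26, 0.872 and 0.792 CPM in saline and 0.336, 0.457 and 0.207 CPM in collagenase libraries, from 154 counts in all. The groups did not overlap, and the log2 fold change was -1.55 with a 95% interval of -2.48 to -0.61 (edgeR adjusted p 0.126, DESeq2 adjusted p 0.107). Its lowest adjusted p over the alternatives was 0.0778.

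Trim25, the ligase that activates the viral RNA sensor RIG-I (Ddx58), measured 24.7, 23.8 and 13.5 CPM in saline and 17.7, 11.2 and 9.58 CPM in collagenase libraries. Saline replicate 3 lay below collagenase replicate 1, so the groups overlapped. The log2 fold change was -0.69 (SE 0.29, edgeR adjusted p 0.400), and -0.92 without saline replicate 3 (edgeR adjusted p 0.0836). Trim12c, a mouse relative of Trim5, measured 7.16, 8.43 and 3.90 CPM in saline and 4.66, 4.08 and 3.47 CPM in collagenase libraries. Its groups overlapped in the same way, with a log2 fold change of -0.67 (SE 0.29, edgeR adjusted p 0.398), or -0.94 with an adjusted p of 0.0351 without saline replicate 3. Among the 14 interferon-inducible members, saline replicate 3 was the lowest saline library in 10, and collagenase replicate 1 was the highest collagenase library in 11. The part of the striatal and other marker differences in these values was not tested.

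**Figure D2:**
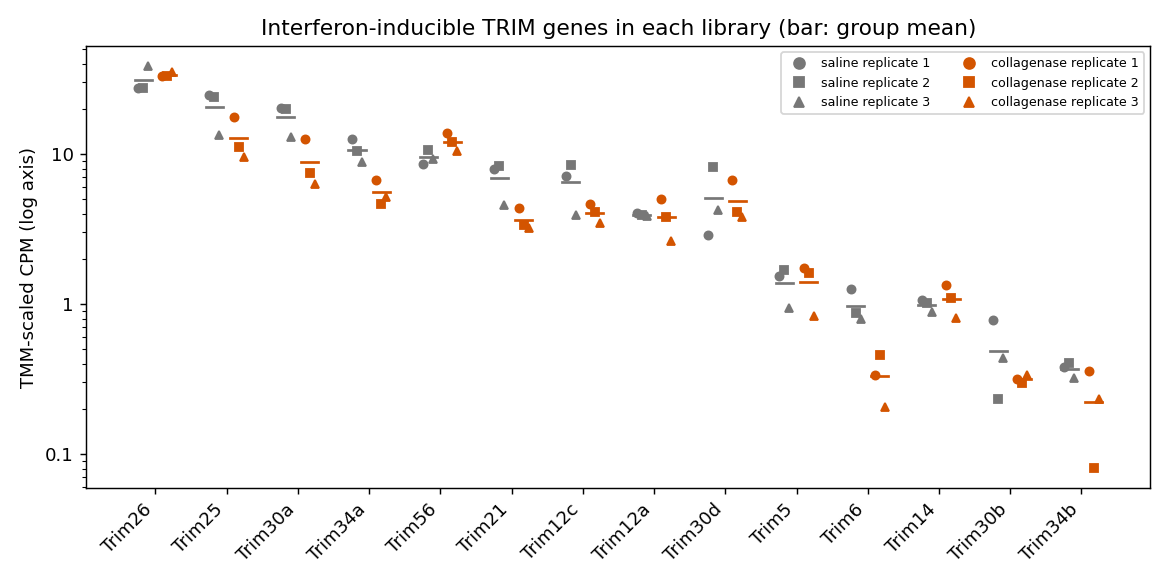
TMM-scaled CPM on a log axis of the 14 interferon-inducible members in saline (grey) and collagenase (orange) libraries; symbols are replicates and short bars group means. Trim30a, Trim34a, Trim21 and Trim6 show no overlap between groups, while Trim26, Trim12a, Trim30d and Trim5 lie at about the same level in both.

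The other interferon-inducible members showed no such separation. Trim26, a ligase of the major histocompatibility region that acts on nuclear Irf3, was the most abundant by length (9.63 FPKM, fragments per kilobase of transcript scaled to library size, as deposited) and measured 27.4, 27.7 and 38.6 CPM in saline and 32.9, 33.1 and 34.9 CPM in collagenase libraries. The interval of its log2 fold change of 0.11 ran from -0.22 to 0.44, and without saline replicate 3, its highest library, the value was 0.29 (edgeR adjusted p 0.114). Trim56, which acts in cytosolic nucleic acid sensing, measured 8.63, 10.7 and 9.27 CPM in saline and 13.8, 11.99 and 10.4 CPM in collagenase libraries, a log2 fold change of 0.35 with an interval of -0.02 to 0.71. Trim14, a RING-less adaptor of mitochondrial antiviral signalling, measured 1.06, 1.02 and 0.880 CPM in saline and 1.34, 1.10 and 0.803 CPM in collagenase libraries, with overlapping groups. The intervals of Trim26, Trim56 and Trim14 exclude a log2 fold change of -0.94, the estimate for Trim34a, as do those of Trim5 and Trim12a given below. That estimate had an interval of -1.40 to -0.48, and the genes were not tested against each other. Trim30b rested on 97 counts and measured 0.788, 0.233 and 0.440 CPM in saline and 0.315, 0.296 and 0.337 CPM in collagenase libraries.

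Of the 14 members, 9 lie in 1 cluster of 10 TRIM genes on chromosome 7 (104218793 to 104507849, GRCm38, a span of 289 kb), and the remaining gene, Trim30c, had 27 counts and fell short of the minimum. Log2 fold changes within the cluster ran from -1.55 for Trim6 to 0.01 for Trim5, with 8 of 9 below 0 (53.4% of all features) and 3 lower without overlap between groups (7.50% of all features). Trim5 measured 1.53, 1.69 and 0.938 CPM in saline and 1.74, 1.61 and 0.829 CPM in collagenase libraries. Trim12a measured 4.03, 3.93 and 3.84 CPM in saline and 5.04, 3.79 and 2.64 CPM in collagenase libraries. Values of both genes overlapped between the groups, with 95% intervals of -0.84 to 0.86 and -0.61 to 0.54. Their response element windows, printed above, differ from that of Trim12c only in the bases outside the capitals. Trim30d measured 2.91, 8.14 and 4.25 CPM in saline and 6.72, 4.11 and 3.78 CPM in collagenase libraries, with a log2 fold change of -0.06 (SE 0.39), while Trim30a, whose printed window is identical, had -1.005. The ratio of count to FPKM, scaled by the library total, differed 1.63-fold between libraries for Trim30d, the most of any member, so its level is uncertain. Reads may also be shared within the cluster: 36.3% of the 50-base stretches of Trim5, 33.0% of those of Trim12c and 10.4% of those of Trim12a occur in transcripts of other genes, against 5.98% for Trim30a.

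**Figure D3:**
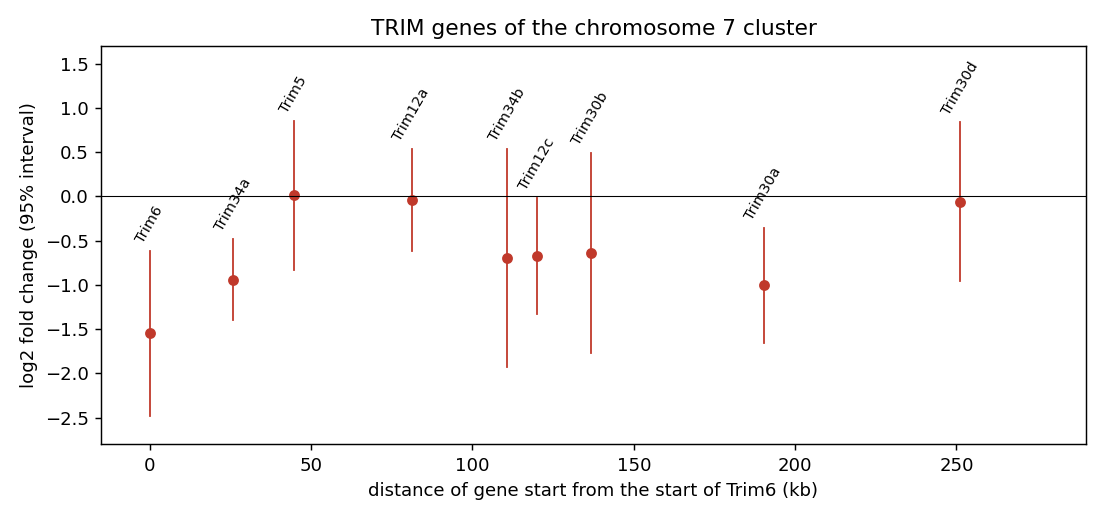
Log2 fold change with its 95% interval (y axis) of the 9 members of the chromosome 7 cluster against the distance of each gene's start from that of Trim6 in kb (x axis). Trim6, Trim34a, Trim12c and Trim30a have intervals below 0. Trim5 and Trim12a lie near 0 between them, and Trim30d lies near 0 beyond Trim30a.

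Neuronal members were much more abundant by length, with a median of 35.2 FPKM against 1.53 FPKM for the interferon-inducible ones. Trim32, a ligase of neural progenitor differentiation and of muscle, measured 175.4, 162.0 and 141.0 CPM in saline and 137.5, 124.3 and 130.2 CPM in collagenase libraries. It was the neuronal member whose groups did not overlap, with a log2 fold change of -0.29 (SE 0.11, 95% interval -0.54 to -0.04) and an adjusted p of 0.327 in edgeR and 0.263 in DESeq2. Without saline replicate 3, its lowest saline library, the log2 fold change was -0.37 (edgeR adjusted p 0.0550). Trim32 lies inside Astn2 on the opposite strand, and no strand-marking step is named, so reads of both genes may not be told apart there. Trim9, which with the netrin receptor Dcc controls axon branching, measured 246.9, 214.5 and 337.4 CPM in saline and 192.4, 224.7 and 231.8 CPM in collagenase libraries. The highest value was that of saline replicate 3, the groups overlapped, and the log2 fold change of -0.30 (SE 0.17) came to -0.09 without that library. Its close relative Trim67 measured 19.6, 17.9 and 18.5 CPM in saline and 18.1, 21.3 and 14.9 CPM in collagenase libraries, a log2 fold change of -0.05 with a 95% interval of -0.38 to 0.29.

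Trim2, which ubiquitinates neurofilament light chain, measured 270.1, 268.1 and 201.9 CPM in saline and 231.0, 215.4 and 193.5 CPM in collagenase libraries. Trim3, which targets a scaffold protein of the postsynaptic density, measured 136.2, 121.5 and 140.4 CPM in saline and 108.4, 122.5 and 126.6 CPM in collagenase libraries. Trim46, which bundles microtubules at the axon initial segment, measured 42.6, 44.7 and 58.1 CPM in saline and 42.2, 42.9 and 46.5 CPM in collagenase libraries. All 3 had overlapping groups, with log2 fold changes of -0.21, -0.16 and -0.14 and edgeR adjusted p of 0.634, 0.649 and 0.760. Without saline replicate 3, the lowest saline library of Trim2 and the highest of Trim46, Trim2 was at -0.34 (edgeR adjusted p 0.1003) and Trim46 at 0.0050. Summed over the 6 neuronal members the level was 890.9, 828.7 and 897.3 CPM in saline and 729.5, 751.1 and 743.5 CPM in collagenase libraries, without overlap. Taken singly, 5 of the 6 overlapped and 1 was lower without overlap, against 7.50% of all features. In saline replicate 3 Trim2 had its lowest saline value and Trim9 its highest, so these offset each other in the sum, which was not tested. The 8 pan-neuronal markers summed to 5781 to 7302 CPM in saline and 4885 to 5787 CPM in collagenase libraries. Their median log2 fold change was -0.15, with 7 below 0 and 0 that passed. For the 7 thalamic relay markers the median was -0.09, with 6 below 0 and 0 that passed. Of 6 GABAergic neuron markers all were below 0 (53.4% of all features), with a lower median of -0.52, and 1 passed, Dlx1, which fell (edgeR adjusted p 0.0328). Groups did not overlap for 3 of them, each lower (7.50% of all features), and the part of neuronal content in the TRIM values was not tested.

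**Figure D4:**
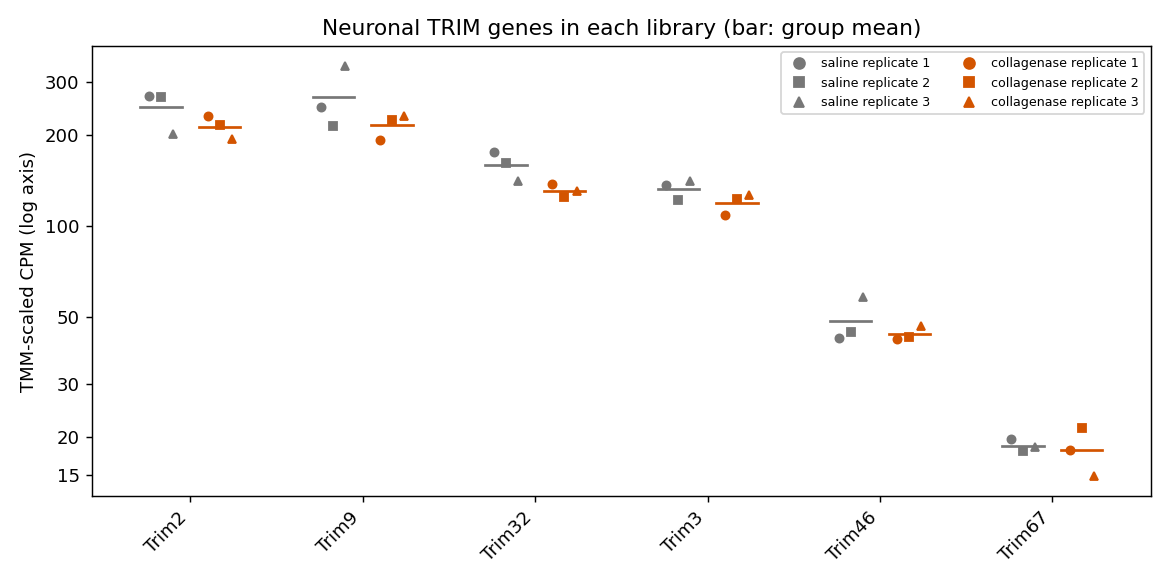
TMM-scaled CPM on a log axis of the 6 neuronal members in saline (grey) and collagenase (orange) libraries; symbols are replicates and short bars group means. Trim32 is the gene whose saline points all lie above its collagenase points, and Trim9 and Trim46 have their highest point in saline replicate 3.

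By length the family was led by Trim37, a ligase of centrosomes and peroxisomes, at a mean of 63.1 FPKM over the 6 libraries, followed by Trim9 at 56.9 FPKM and Trim44, a RING-less member, at 56.1 FPKM. Trim44 ranged from 50.3 to 61.2 FPKM, Trim9 from 49.96 to 73.4 FPKM and Trim37 from 54.6 to 72.2 FPKM, so the order of these 3 is within their spread. Trim71, a stem cell regulator, was the lowest member at 0.0274 FPKM. Members together took 0.255% ± 0.0153 of the counts in saline and 0.242% ± 0.00930 in collagenase libraries (SD, n = 3 per group). Trim37, Trim44, Trim2 and Trim9 made up 48.0% ± 1.91 and 47.0% ± 1.20 of these counts. Trim37 measured 431.3, 388.0 and 392.4 CPM in saline and 341.0, 376.4 and 321.4 CPM in collagenase libraries. Its groups did not overlap, with a log2 fold change of -0.22 (SE 0.11, edgeR adjusted p 0.466). Trim44 measured 319.8, 295.02 and 402.2 CPM in saline and 314.6, 331.1 and 338.2 CPM in collagenase libraries, a log2 fold change of -0.05. Without saline replicate 3, its highest library, that value was 0.09.

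**Figure D5:**
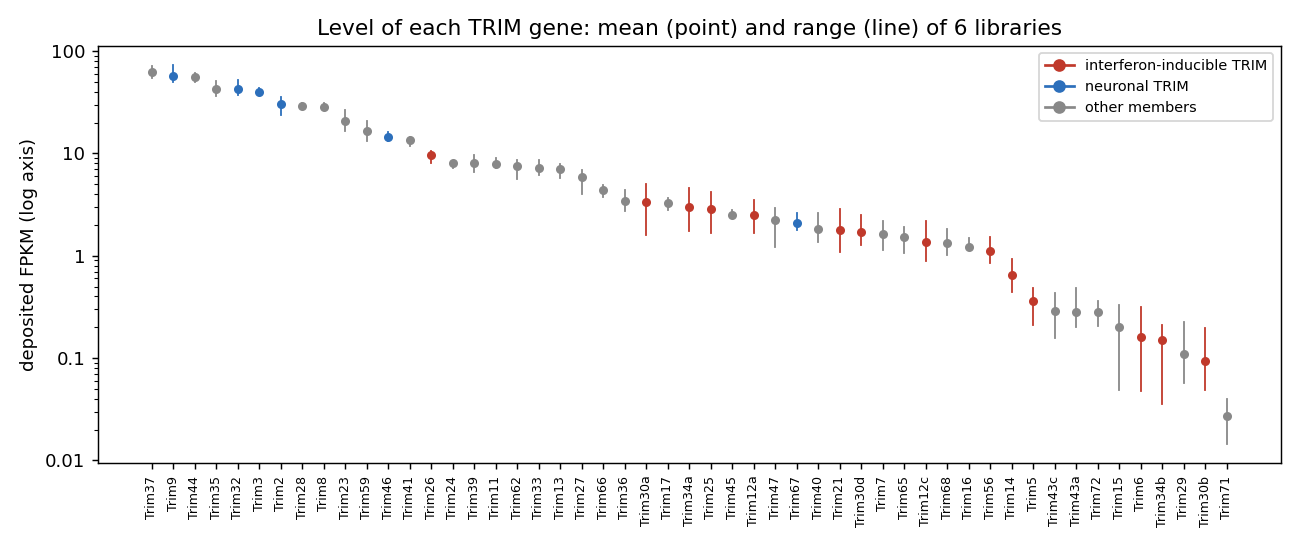
Deposited FPKM on a log axis of the 51 TRIM genes, ordered by their mean over 6 libraries (point), with the range over libraries (line); red marks interferon-inducible, blue neuronal and grey other members. Neuronal genes other than Trim67 stand among the 12 highest, and all interferon-inducible genes but Trim26 fall below rank 23.

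Among the 31 members outside both lists, log2 fold changes ran from -0.46 for Trim40 to 0.60 for Trim47. Trim47 (chromosome 11, 116105752 to 116127210, minus strand, GRCm38) measured 4.28, 4.86 and 3.17 CPM in saline and 6.28, 6.10 and 6.27 CPM in collagenase libraries. It was the member that was higher without overlap, at 4.10 ± 0.859 and 6.22 ± 0.0998 CPM, with an SE of 0.20, an unadjusted p of 0.0155 and an edgeR adjusted p of 0.239. Without saline replicate 3, its lowest library, the log2 fold change was 0.44 (edgeR adjusted p 0.190). Trim65, a ligase of the viral RNA sensor Ifih1, overlaps Trim47 on the same strand and measured 5.43 ± 1.21 and 6.72 ± 0.864 CPM (edgeR adjusted p 0.649). Trim40, named for the lowest value, measured 5.27, 2.70 and 4.60 CPM in saline and 2.54, 3.33 and 3.32 CPM in collagenase libraries, with overlapping groups. Trim62 was singled out with its values in view. It measured 22.5, 23.1 and 37.9 CPM in saline and 29.4, 33.2 and 34.2 CPM in collagenase libraries. Without saline replicate 3 it was called higher (log2 fold change 0.50, edgeR adjusted p 0.0351), and with it the log2 fold change was 0.21 with an adjusted p of 0.765.

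The chromatin regulators Trim28, Trim24, Trim33 and Trim66, of which Trim28 is the corepressor of KRAB zinc finger proteins, stayed within narrow limits. Their log2 fold changes were -0.05, -0.15, -0.06 and 0.13, and all 4 intervals lay within -0.39 and 0.36. Groups did not overlap for Trim24, at 35.8 ± 2.46 and 32.1 ± 1.98 CPM. Of the muscle genes Trim72 reached the minimum, at 0.635 ± 0.136 and 0.558 ± 0.175 CPM, while Trim63, Trim55 and Trim54 held 20, 4 and 2 counts. Just inside the minimum stood Trim71 with 69 counts and Trim34b with 71, and just outside it Trim30c with 27 and Trim75 with 23. Trim71 measured 0.405, 0.204 and 0.176 CPM in saline and 0.357, 0.269 and 0.285 CPM in collagenase libraries. Counts of Trim30c were 12, 4 and 5 after saline and 0, 1 and 5 after collagenase. Those of Trim75 were 0, 7 and 6 after saline and 4, 4 and 2 after collagenase, and the groups overlapped for both genes. Trim38, an interferon-inducible gene, held 19 counts, and Trim31, Trim52, Trim60 and Trim61 were at 0 in all libraries.

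Of 4 TRIM genes that carry other names, 1 passed the test. Mefv, which encodes the inflammasome sensor pyrin, had 0 counts in saline and measured 0.735, 0.322 and 0.285 CPM in collagenase replicates 1, 2 and 3. Against a floor of 3 counts over the saline group it was at least 16.8-fold higher (edgeR adjusted p 0.0368). Pml, the interferon-inducible scaffold of nuclear bodies, measured 18.2, 17.2 and 19.1 CPM in saline and 13.5, 14.5 and 11.9 CPM in collagenase libraries, without overlap (log2 fold change -0.45, SE 0.12, edgeR adjusted p 0.153). Mid1 and Mid2, ligases of microtubules, had log2 fold changes of 0.64 and 0.08 and did not pass.

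The enzymes, sensors and factors around the family changed in part. Of 16 interferon receptors and transcription factors, 2 rose and 2 fell. Irf8 and Irf5, factors of myeloid cells, had log2 fold changes of 1.72 and 0.95, and the factors of the type I interferon response Irf7 and Stat2 of -2.04 and -0.50. The list's median was -0.02. Of 5 genes of ISG15 conjugation, a ubiquitin-like tag, 2 fell, Isg15 itself and its protease Usp18, and the median of the list was -0.83. Its E1 enzyme Uba7 and E2 enzyme Ube2l6, at log2 fold changes of -0.78 and -0.83, did not pass.

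Of 14 innate sensing partners of TRIM proteins 2 rose and 0 fell at the threshold, with a median of 0.04 and 7 below 0. Groups did not overlap for 4 that were lower, Ddx58, Ifih1, Tbk1 and Zbp1 (7.50% of all features). They did not overlap either for 3 that were higher, Ikbke, Tmem173 and Mavs (10.1% of all features). Those that rose were Ikbke, the kinase that Trim6 chains activate, from 1.41 ± 0.196 to 3.52 ± 0.302 CPM, and Tmem173, which encodes the sensor adaptor STING, from 3.61 ± 0.409 to 6.76 ± 0.752 CPM (edgeR adjusted p 0.024 and 0.0433). Ddx58, the target of Trim25, did not pass at 17.7 ± 2.08 and 9.57 ± 2.47 CPM (log2 fold change -0.88, edgeR adjusted p 0.0665). Neither did Ifih1, the target of Trim65, and Zbp1, at log2 fold changes of -0.91 and -1.48 (edgeR adjusted p 0.108 and 0.197). Tab2 and Tab3, the targets of Trim30a, had log2 fold changes of 0.09 and -0.01. Of 14 ubiquitin E1 and E2 enzymes 0 passed, 12 were below 0 (53.4% of all features) and the median was -0.15. At an unadjusted p under 0.05 edgeR gave 3 of these enzymes, Ube2d3, Ube2e3 and Ube2w, all lower. At that p 4.60% of all features were lower and 7.44% higher. Of 10 substrates and partners of the neuronal members 0 passed either (4 at that unadjusted p), with a median of 0.08. Nefl, the substrate of Trim2, measured 623.6 ± 30.2 and 553.0 ± 61.7 CPM, and Dcc, the partner of Trim9, 2.71 ± 0.397 and 3.03 ± 1.28 CPM.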

How the data were processed

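RNA from VPL/VPM tissue was sequenced as poly(A) libraries. Per the submitters' processing notes, tools were HISAT2 2.2.1, StringTie, FastQC and DESeq2 and the build was GRCm38, with no roles given; annotation release, strand setting and treatment of shared reads were not stated. Each deposited table holds raw counts and FPKM per feature, per the file headers, both computed by the authors. Counts were tested; FPKM served only to compare levels between genes and to check counts. Lines of spilled annotation text (10 to 30 per file) were skipped.

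Counts were fitted with edgeR 4.0.16 in R 4.3.3: filterByExpr, TMM factors (0.898 to 1.063) and its robust quasi-likelihood test, where p-values are two-sided and Benjamini-Hochberg adjusted over the 17240 features tested. All 51 members passed that filter. Total counts of 33603076 to 44815451 per library set the precision, and the floor of 3 counts covers counting error only, since PCR reads are not independent molecules. The SE of an edgeR fold change was its absolute log2 value divided by the square root of the test's F statistic. The 95% intervals were built from that SE and the test's degrees of freedom, so both follow from the same test as the p-value. Alternatives were DESeq2 1.42.0, RLE factors, no filter, a non-robust fit, a replicate block and leaving out each library. Positions and transcripts came from GENCODE M21, promoters from RefSeq, where 39 of the 51 members matched by symbol.

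Members and lists were chosen with earlier results of these data known. Values per library are given for members that pass, for the interferon-inducible and neuronal lists, for the highest and lowest other member, for the 3 highest by FPKM and for those at the minimum. From other lists, genes that pass are named, up to 4 each by the smallest p, with all TRIM genes under other names; every other gene named was chosen after its values were seen.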

Additional observations from a re-analysis of the deposited data

How the results depend on the processing

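No member passed in the fit described, with RLE factors or with the non-robust fit. DESeq2 called 3 members, all lower (788 features in all). Without a filter 1 member was called, Trim34a, lower (edgeR adjusted p 0.0414). Same-numbered libraries deviated together with correlations of 0.0439, 0.107 and 0.203, against -0.161 to 0.0759 for differently numbered ones. Pairing by number is not stated and was left out of the main fit. With the replicate number as a block, 1 member was called, Trim30a, lower (edgeR adjusted p 0.0457), and 302 features in all against 416. Leaving out each library gave 0 to 4 members, 0 to 1 higher and 0 to 3 lower, and 85 to 917 features in all; the 4 members came without saline replicate 3. Dropping saline replicate 1 left 85 features, and dropping a collagenase library left 207 (replicate 1), 142 (replicate 2) or 213 (replicate 3). The cause was not tested.

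The median log2 fold change ran from -0.75 to -0.44 over these 6 fits for the interferon-inducible and from -0.21 to -0.10 for the neuronal members. In at least 1 fit without a library, 16 members changed sign, none of them called in any fit. Those not given below are Trim8, Trim15, Trim17, Trim33, Trim39, Trim41, Trim43a, Trim71 and Trim72, with values from -0.59 (Trim43a) to 0.95 (Trim15). With the block Trim30d was at 0.011 and Trim5 at -0.011. Leaving out 1 library, values ran from -0.37 to 0.45 for Trim30d, from -0.20 to 0.28 for Trim5, from -0.29 to 0.17 for Trim12a, from -0.052 to 0.31 for Trim14, from -0.14 to 0.092 for Trim44, from -0.23 to 0.0050 for Trim46 and from -0.18 to 0.079 for Trim67. A minimum of 10 or 100 counts gave 58 or 46 members. For members under 100 counts, such as Trim34b and Trim30b, intervals of over 2 on the log2 scale limit what can be seen.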

Other observations

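The median coefficient of variation was 24.3% in saline and 28.2% in collagenase libraries for the interferon-inducible members, against 13.3% and 8.43% for the neuronal ones and 15.2% and 10.4% for the other 31. The median level of these sets was 1.53, 35.2 and 4.38 FPKM, so the set with the lowest median level had the highest median spread. Over all 51 members, saline replicate 1 was the highest saline library in 27 and saline replicate 3 the lowest in 27. These counts are descriptions of 3 libraries per group and were not tested.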
